A study of Homo sapiens with 4 samples.

Results

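Binding of IGF2BP2 to the transcripts of 10 glycolytic enzyme genes (HK2, ALDOA, TPI1, GAPDH, PGK1, PGAM1, ENO1, PKM, LDHA and LDHB) was examined in Jurkat cells. A peak was counted for a gene when it carried the Ensembl identifier of that gene and when most of its length was coding sequence (CDS), UTR, noncoding exon or intron on the strand of the gene. These are called sense peaks, and the 10 genes held 99 of 74237 sense peaks in replicate 1 and 90 of 77288 in replicate 2. Jurkat is a human T-cell acute lymphoblastic leukemia line, and in iRIP-seq its cells were crosslinked with UV light so that RNA bound to the protein could be recovered with an antibody and sequenced. The experiment held 2 IGF2BP2 iRIP libraries, both made with the same antibody from Jurkat cells in serum-containing medium, and 2 input libraries, which were not analysed here. The labels name no treatment and do not say whether the replicates came from separate cultures, so their spread may be technical.

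Glycolysis turns glucose into pyruvate, and lactate dehydrogenase then turns pyruvate into lactate. Leukemic and other dividing cells express many of these enzymes at high levels. IGF2BP2 is a cytoplasmic RNA-binding protein that reads N6-methyladenosine (m6A) on mRNA and is known for stabilizing the transcripts it binds. The height of a peak is given in tags, taken here as the reads in a bin of 50 nt. In peaks of several bins, height times the number of bins was a whole number in every case (tolerance 0.01), so their height was read as the mean over their bins. Heights were neither adjusted for sequencing depth, which is unknown here, nor set against the abundance of each RNA, and the part of RNA abundance in the heights was not tested.

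Sequence could be read under a few of these peaks from RefSeq promoter windows (GRCh38.p14), and it shows the letters under peaks near a RefSeq start of 4 of the genes. For TPI1 this is a start inside the gene, at position 6868105, and not the 5′ end of its interval at 6867420, from which distances are counted elsewhere. The first sequence is the whole of the highest TPI1 peak, which lay in an intron in both replicates (9.67 and 12.7 tags), upstream of that inner start. The others are the first bases at or after the RefSeq start under peaks in the 5′UTR, of which those of HK2 (5 and 6 tags) and TPI1 (7 and 11.8 tags) were present in both replicates, and those of PGK1 (5 tags) and LDHA (8 tags) in replicate 1 only. Each is written 5′ to 3′ on the strand of the gene, and capitals mark GGA, the fixed letters of the GGAN motif named by the study.
TPI1, chr12:6867901-6868050, plus strand: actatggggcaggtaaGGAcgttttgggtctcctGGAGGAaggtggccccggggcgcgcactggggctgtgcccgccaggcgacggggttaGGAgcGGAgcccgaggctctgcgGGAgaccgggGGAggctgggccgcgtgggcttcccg
TPI1, chr12:6868105-6868134, plus strand: ctccccttcctcgccggcgtccgcgtcccc
HK2, chr2:74834151-74834176, plus strand: caGGAgtcccgggctgccgctggcaa
PGK1, chrX:78104251-78104280, plus strand: ccgcattctgcaagcctccGGAgcgcacgt
LDHA, chr11:18394563-18394592, plus strand: gtgctgcagccgctgccgccgattccGGAt

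The intronic TPI1 sequence held 7 copies of GGA in 150 bases, and 93.6% of the windows of the same length and the same distance upstream of a start at 15841 protein-coding genes held at least 1. Those windows are promoter sequence, which is not transcribed from that start, so this share is not one over transcribed RNA. No share of windows with 7 or more copies is given, so whether 7 is usual cannot be told. The stretches from HK2, PGK1 and LDHA held 1 copy each and the second TPI1 stretch held 0. Among all genes, 49.2% of the first 30 transcribed bases held GGA, so a copy in a short window was common. Only the strand of the gene was searched, no longer motif was tested, and a match is a description of the letters. The GC content of the 5 stretches lay between 66.7% and 80.0%.

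ALDOA and LDHB share their ground with another annotated gene, and this decided what the identifiers counted. No peak in either list carried the identifier of ALDOA, which cleaves fructose 1,6-bisphosphate. The 13 sense peaks in replicate 1 and the 12 in replicate 2 that lay within the RefSeq interval of ALDOA (chr16:30064279-30070420) were all listed under ENSG00000285043.3, and none had any share in CDS under that identifier. Of the 7 sense peaks within the interval of LDHB in each replicate, 6 were listed under ENSG00000285854.1. The 4 and 2 other peaks listed under the identifier of LDHB itself were intronic peaks of 4 to 6 tags that lay outside the interval. Peaks were therefore also counted by position, that is, within the RefSeq interval on the strand of the gene whatever the identifier, which gave 113 and 106 peaks. Whether reads in shared ground came from ALDOA and LDHB or from the overlapping gene cannot be told apart in these lists.

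By identifier, 9 of the 10 genes had a sense peak in replicate 1 and 9 in replicate 2, all but ALDOA. By position, all 10 had one in each replicate. Among the 15841 protein-coding genes with a strand in the reference, 61.4% had a sense peak in replicate 1, 59.6% in replicate 2 and 49.3% in both. By position, 8 of the 10 genes reached 10 tags in each replicate, against 4.25% of all genes. The exceptions were TPI1, with 9.67 tags as its highest peak in replicate 1, and PGAM1, with 8.5 tags in replicate 2. With the minimum at 20 tags, 5 of the 10 remained (ALDOA, GAPDH, ENO1, PKM and LDHA), against 0.511% of all genes. The median highest peak of the 10 genes was 17.5 tags in replicate 1 and 19 in replicate 2, and that of all protein-coding genes was 4 and 5 tags.

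The 10 genes had a median length of 15775 nt, against 25608 nt for all protein-coding genes. Among genes with a sense peak in both replicates the median length was 54110 nt. HK2 (59233 nt) and PKM (32563 nt) were longer than the median of all genes. The part of gene length in the counts per kb was not tested. Per kb of gene the median was 0.810 sense peaks in replicate 1 and 0.612 in replicate 2, whereas the median of all genes was 0.0223 and 0.0188, and that of genes with a sense peak in both replicates was 0.0590 and 0.0622. TPI1 had the densest peaks (3.40 and 3.97 per kb) and HK2 the sparsest (0.253 and 0.186 per kb). Across the 10 genes, Spearman's rho between the replicates was 0.829 for the number of peaks, 0.867 for peaks per kb and 0.774 for the highest peak, given as a description of genes that shared both libraries.

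**Figure D1:**
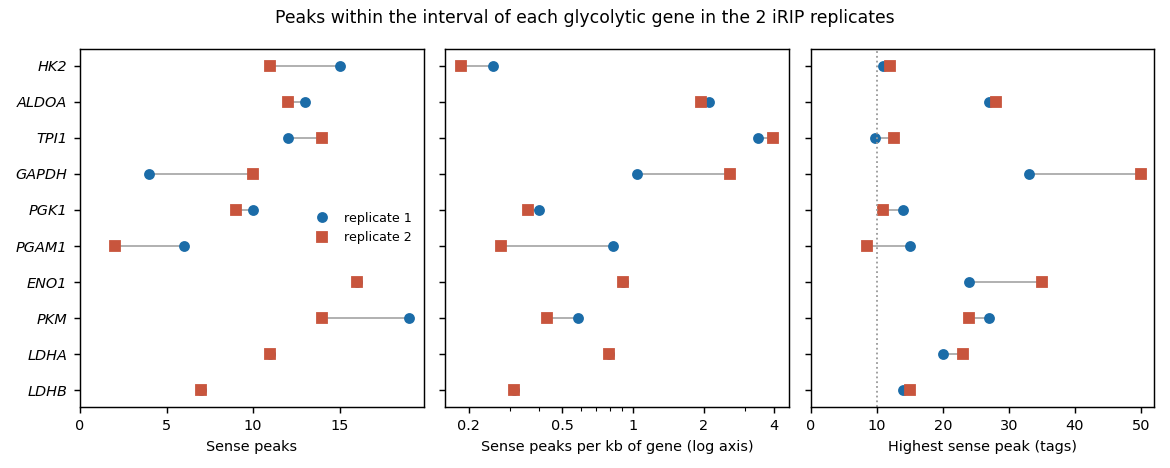
The number of sense peaks, sense peaks per kb of gene (log axis) and the highest sense peak in tags are plotted for each gene by position, with replicate 1 as circles and replicate 2 as squares. A dotted line marks 10 tags, and GAPDH reached the highest values of 33 and 50 tags while PGAM1 and TPI1 each had 1 replicate below the line.

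HK2 is the hexokinase that phosphorylates glucose in the first step. It had 15 peaks in replicate 1 and 11 in replicate 2 over a gene of 59233 nt, and 8 peaks of each replicate were overlapped in the other. In replicate 1 the highest was a CDS peak at chr2:74874251-74874300 with 11 tags, which had 9 tags in replicate 2. In replicate 2 the highest lay in the 5′UTR at chr2:74834301-74834400 with 12 tags, against 8 tags in replicate 1. Most HK2 peaks were low, with a median of 4 tags in replicate 1 and 8 in replicate 2.

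ALDOA, the aldolase A gene, had higher peaks than HK2 in a gene of 6142 nt. Of its 13 and 12 peaks by position, 10 in each replicate were overlapped in the other. All 10 of these were higher in replicate 2, with a median ratio of 2.0. The highest in replicate 1, 27 tags at chr16:30067201-30067300, was not overlapped in replicate 2. The highest in replicate 2, 28 tags at chr16:30070101-30070150, had 11 tags in replicate 1. Under the identifier of the overlapping gene, 9 and 8 of these peaks were mainly 3′UTR and 4 in each replicate were mainly intron, and regions under the transcripts of ALDOA itself were not assigned here.

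TPI1 encodes triosephosphate isomerase, which interconverts the 2 products of aldolase. Its 12 and 14 peaks covered 24.1% and 39.7% of a gene of 3529 nt, the largest covered share among the 10 genes in each replicate. The peaks were many but low. None of the 12 in replicate 1 and 3 of the 14 in replicate 2 reached 10 tags, and the 9 that were overlapped in replicate 2 were all higher there, by 1.11 to 1.81 times. Several regions were mixed in this short gene, with 4 and 5 peaks mainly in CDS, 3 in each replicate mainly in the 5′UTR and 4 in each replicate mainly intronic. The intronic peak printed above was the highest in both replicates, and only TPI1 and GAPDH had their highest peak in the same place in both.

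GAPDH, the dehydrogenase that oxidizes glyceraldehyde 3-phosphate, had the highest peak of the 10 genes in each replicate. It lay at chr12:6534801-6534850, 308 nt from the 5′ end of the gene at its midpoint, with 0.64 of its length in the 5′UTR and 0.36 in CDS. It reached 33 tags in replicate 1 and 50 in replicate 2. By the lower of both heights GAPDH ranked 11 among the 15841 genes. The study used GAPDH as a negative control for m6A, and the m6A data were not analysed here. All 4 GAPDH peaks of replicate 1 were overlapped in replicate 2. Beside the highest, they were a 5′UTR peak of 12 and 20 tags at the start of the gene, a noncoding exon peak of 10 tags in both, and a CDS peak at chr12:6536451-6536600 with 15.3 and 31.3 tags. Replicate 2 held 6 further GAPDH peaks that replicate 1 lacked, which included CDS peaks of 28.3 tags at chr12:6536651-6536800 and 20 tags at chr12:6537901-6538000. The other 4 were 3 intronic peaks of 5 to 7 tags and a 3′UTR peak of 6 tags. The authors removed peaks that overlapped input peaks, and the part of that step in peaks listed for 1 replicate was not tested.

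PGK1 encodes phosphoglycerate kinase, the first enzyme of the pathway that yields ATP. It had 10 and 9 peaks within its interval, of which 7 in each replicate were mainly in CDS, and an 11th peak of replicate 1 with 4 tags lay in an intron outside it. In replicate 1 a pair of CDS peaks reached 14 tags. The first, at chrX:78109851-78109900, had 9 tags in replicate 2, and the second, at chrX:78124851-78124900, was not overlapped there. The highest in replicate 2 had 11 tags at chrX:78114001-78114100, against 4.5 tags in replicate 1. PGK1 differed from the other 9 genes in the balance of heights, since 1 of its 5 overlapped peaks was higher in replicate 2, whereas 56 of 63 were higher there in the other 9. Heights are means over bins, and some of these peaks differed in length. The peak at chrX:78113701-78113750 had 13 tags in 1 bin, against 5.33 tags over 3 bins in replicate 2. That at chrX:78117301-78117350 had 9 tags in 1 bin, against 8.5 tags over 2 bins. In the peak at chrX:78123251-78123350 replicate 1 was the longer, with 7 tags over 2 bins against 6 in 1 bin. PGK1 was singled out after its values were seen, and neither the difference nor the part of peak length in it was tested.

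PGAM1, the phosphoglycerate mutase, had 6 peaks in replicate 1 and 2 in replicate 2. The highest in replicate 1 had 15 tags at chr10:97430351-97430400, split between intron (0.56) and CDS (0.44), and was not overlapped in replicate 2. The single peak found in both lay in CDS at chr10:97430951-97431050, with 5.5 and 8.5 tags. PGAM1 thus had no peak of 10 tags in replicate 2, and its highest peaks rested on replicate 1.

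ENO1, the enolase that forms phosphoenolpyruvate, had 16 peaks in each replicate, 10 and 9 of them mainly in CDS. Of these, 13 in replicate 1 and 11 in replicate 2 were overlapped in the other, the most of any of the 10 genes, and a longer peak of replicate 2 spanned a pair of replicate 1 peaks in 2 places. A CDS peak at chr1:8870451-8870500 was close to equal in both, with 24 and 26 tags. A peak at chr1:8866251-8866300, across the border of a coding exon and an intron, had 9 and 35 tags in replicates 1 and 2, a ratio of 3.89 that was the largest among the shared peaks of the 10 genes. ENO1 also had 24.5 tags in replicate 2 on a CDS peak at chr1:8867101-8867200 that replicate 1 lacked.

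PKM encodes the pyruvate kinase that makes pyruvate and ATP. It had 19 and 14 peaks, 11 and 9 of them mainly in CDS. Its highest peak in replicate 1, 27 tags in the 5′UTR at chr15:72231101-72231150, was not overlapped in replicate 2. The highest in replicate 2, 24 tags at chr15:72200451-72200500, had 15 tags in replicate 1. All 7 PKM peaks of replicate 1 that were overlapped in replicate 2 were higher in replicate 2, by 1.13 to 2.77 times. The largest ratio belongs to a peak of 4.33 tags at chr15:72230751-72230900. Replicate 2 peaks of 12 and 8 tags overlapped it by the same length, and the ratio uses the 12 tags.

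LDHA and LDHB encode the subunits of lactate dehydrogenase, which interconverts pyruvate and lactate. LDHA had 11 peaks in each replicate and 6 of each were overlapped in the other. A CDS peak at chr11:18396801-18396850 was the highest in replicate 1 with 20 tags, against 13 tags in replicate 2, where the peak was longer. The highest in replicate 2, with 23 tags at chr11:18399401-18399450, had 11.5 tags over a longer peak in replicate 1. LDHB had 7 peaks in each replicate by position, and 5 of each were overlapped. Its 5′UTR peak, the only one inside the interval that carried its own identifier, had 10 and 15 tags, and a CDS peak at chr12:21641951-21642000 had 14 and 11 tags. The highest peaks of LDHB, 14 and 15 tags, were below those of LDHA, 20 and 23 tags, in both replicates.

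**Figure D2:**
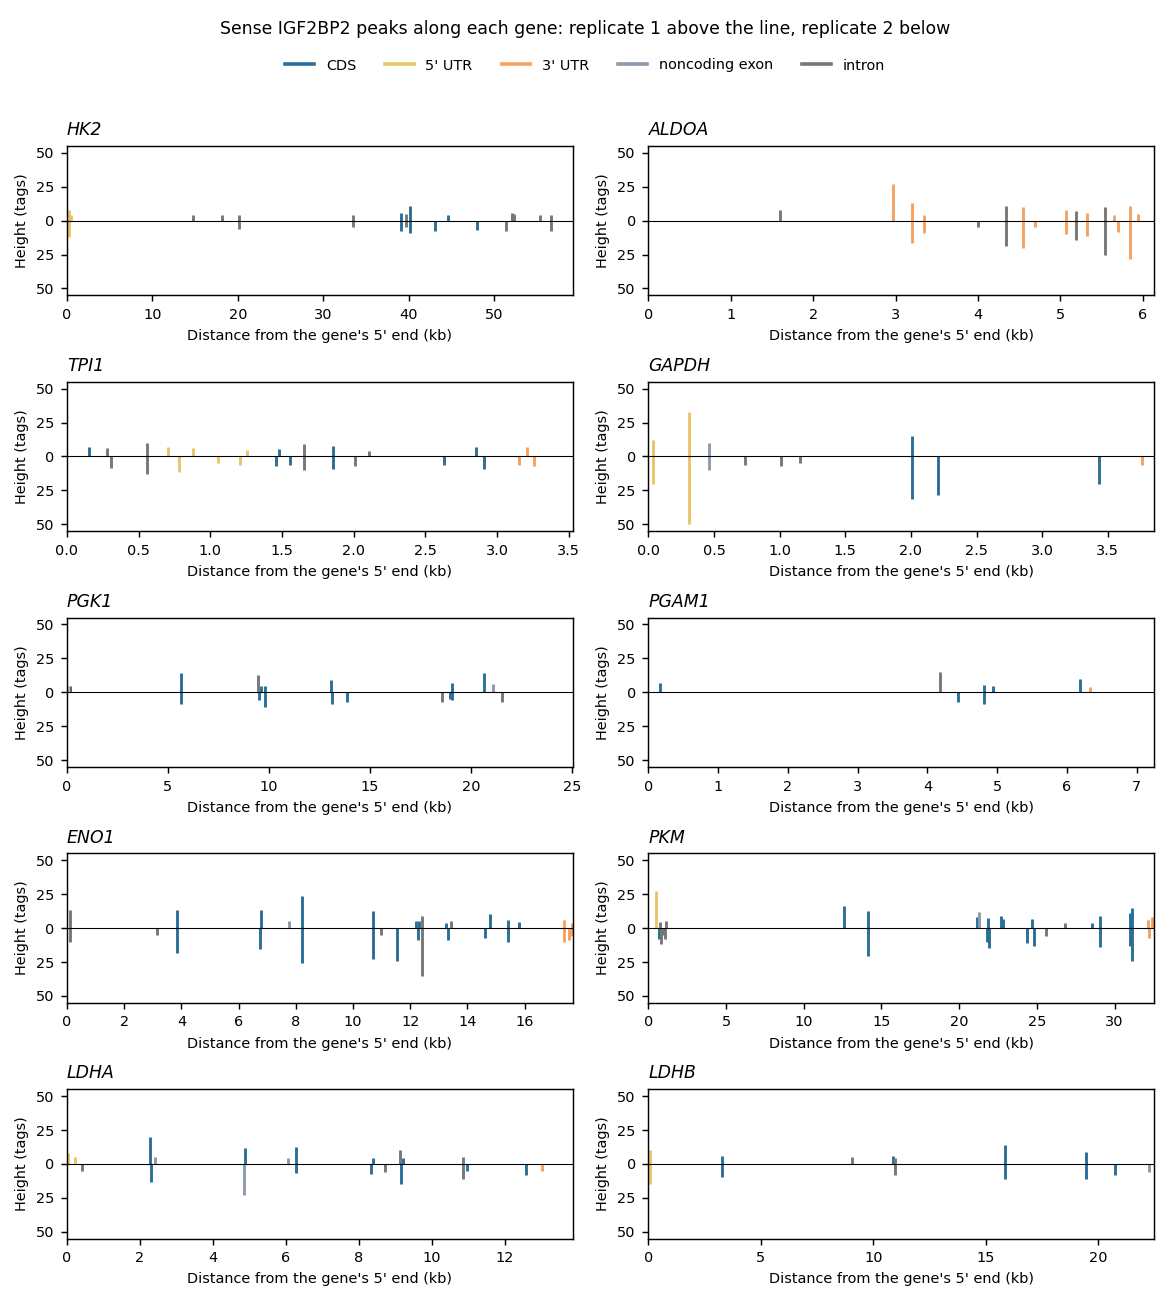
Each panel shows 1 gene, with the distance of each sense peak from the 5′ end of the gene in kb on the x axis and its height in tags on the y axis, replicate 1 above the line and replicate 2 below, coloured by main region. In ALDOA, 10 peaks of each replicate stand opposite a peak of the other, in ENO1 13 of replicate 1 and 11 of replicate 2 do, and the peak of GAPDH with 33 and 50 tags is the tallest in each replicate.

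Positions along the genes varied. Within 500 nt of the 5′ end, 16 peaks in 9 genes were found in replicate 1 and 9 peaks in 6 genes in replicate 2, and 8 of each were overlapped in the other. Their median height was 7.5 and 10 tags, and that of the peaks further in was 6.5 and 8.5 tags. No share over all genes is set beside these counts, which describe the 10 genes only. The 5′ end was that of the RefSeq interval, so a transcript that starts further in was not told apart.

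By region, 45 of 99 member peaks in replicate 1 (45.5%, 95% Wilson interval 36.0% to 55.2%) and 45 of 90 in replicate 2 (50%, 39.9% to 60.1%) were mainly in CDS. The mean was 47.7% ± 3.21 (SD, n = 2), and the replicates differed by 4.55 percentage points, which two-sided Fisher's exact test did not separate (p = 0.562). This test compares the libraries and not conditions, and peaks of 1 gene are not independent. Over all sense peaks, CDS was the main region of 19.9% and 25.6%. The peaks of the 10 genes were mainly intronic in 28.3% and 30% of cases, against 69.2% and 62.4% of all sense peaks. The 5′UTR was the main region of 13 and 8, noncoding exon of 6 and 2, and the 3′UTR of 7 and 8. In 39.4% and 46.7% of the peaks of the 10 genes the bins spanned both CDS and intron, against 15.5% and 21.0% of all sense peaks.

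When peaks were split at 10 tags, the CDS share of the 10 genes differed from that of all genes mainly under 10 tags. At 10 tags or more, 63.0% of 27 and 58.8% of 34 peaks of the 10 genes were mainly in CDS, and 58.6% of 2025 and 60% of 6762 sense peaks of all genes were, so the shares were close. At that height, 4 of 27 and 6 of 34 peaks of the 10 genes were mainly intronic (14.8% and 17.6%), against 25.4% and 26.5% of all. The 5′UTR was the main region of 4 and 5 of them (14.8% and 14.7%), against 7.70% and 5.55%. GAPDH alone gave 2 of these 5′UTR peaks in each replicate. With so few peaks these shares are a description, and the differences were not tested. Under 10 tags, the CDS share was 38.9% and 44.6% in the 10 genes and 18.8% and 22.3% over all genes. High peaks were also more frequent in the 10 genes, where 27.3% and 37.8% of the peaks reached 10 tags, against 2.73% and 8.75% of all sense peaks. The part of this mix of heights in the CDS share over all peaks was not tested. Peaks of more than 1 bin made up 32.3% and 43.3% of theirs against 4.93% and 8.24% of all, and at 10 tags or more 40.7% and 67.6% against 16.4% and 22.0%.

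Many places in these genes were found in both replicates. Of the peaks of the 10 genes by identifier, 54 of 99 in replicate 1 (54.5%, 44.8% to 64.0%) were overlapped by at least 1 bp on the same strand in replicate 2, and 52 of 90 in replicate 2 (57.8%, 47.5% to 67.5%) in replicate 1. Over all sense peaks the shares were 16.6% and 15.8%. At 10 tags or more, 74.1% and 85.3% of the peaks of the 10 genes were overlapped, against 73.5% and 62.4% of all. Under 10 tags the shares were 47.2% and 41.1%, against 15.1% and 11.4%. In these shares the overlapping peak of the other replicate could have any height. With the minimum of 10 tags on both lists, 59.3% and 47.1% of the peaks of the 10 genes were overlapped, and no such share over all genes is given. Counted by position, peaks covered from 1.44% (HK2) to 24.1% (TPI1) of a gene in replicate 1 and from 1.01% to 39.7% of the same genes in replicate 2, and the part of this density in the overlap was not tested. In the heights, 57 of the 68 shared peaks by position were higher in replicate 2, with a median ratio of 1.52, and over 12358 shared sense peaks of all genes 77.9% were higher in replicate 2, with a median ratio of 1.4. The highest peak of replicate 2 was overlapped in replicate 1 in all 10 genes, and that of replicate 1 was overlapped in replicate 2 in 6, the others being ALDOA, PGAM1, PGK1 and PKM.

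**Figure D3:**
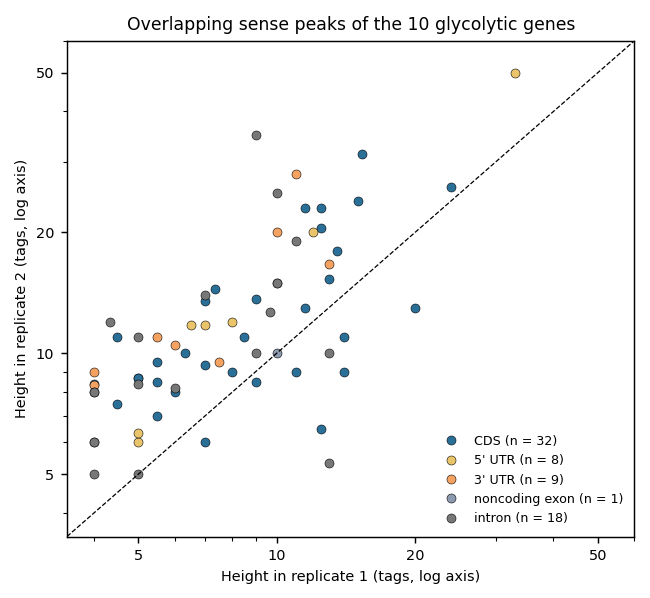
Each point is 1 of the 68 sense peaks of replicate 1 in the 10 genes that was overlapped in replicate 2, with its height in tags in replicate 1 on the x axis and in replicate 2 on the y axis, both on log axes, coloured by main region. Of the 68 points, 57 lie above the dashed line of equal heights. By main region 32 are CDS peaks, 18 intronic, 9 in the 3′UTR, 8 in the 5′UTR and 1 in a noncoding exon.

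The other genes of the pathway were counted by position. Of 26 further glycolytic genes, 23 had a strand in the reference, of which 15 had a sense peak in replicate 1, 16 in replicate 2 and 13 in both, beside 49.3% of all protein-coding genes in both. At 10 tags, 2 reached it in replicate 1, 6 in replicate 2 and 2 in both, beside 4.25% of all genes in both. The 2 in both were GPI, the isomerase of the second step, with 19 and 24 peaks and highest peaks of 16 and 23 tags, and PFKP, the platelet-type phosphofructokinase, with 24 and 26 peaks and highest peaks of 11 and 21 tags. Among isozymes, HK1 had 5 peaks in each replicate with highest peaks of 5 and 10 tags, below HK2 with 11 and 12, in a gene of 131883 nt. ENO2 reached 8 and 11 tags and ENO3 5 and 6 tags, below ENO1 with 24 and 35. ALDOC and PKLR each had 1 peak of 5 tags in replicate 2 only, HK3 and ENO4 had peaks of 4 tags in replicate 1 only, and HKDC1 and LDHAL6A had peaks of 4 and 5 tags. No sense peak was listed in either replicate for GAPDHS, PGK2, PGAM2, LDHC or LDHAL6B, which are isozyme genes known mainly from testis or muscle. A gene without a peak is not shown to be unbound, and its RNA level was not analysed here.

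The cells carried T-lineage transcripts among the peaks. Of 7 T-lineage marker genes with a strand in the reference, 5 had a sense peak in both replicates and 4 reached 10 tags in both. Among the B-lineage and myeloid markers, 1 of 2 and 1 of 3 had a peak in both replicates, and none of these 5 genes had a peak above 6 tags.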

How the data were processed

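IGF2BP2-bound RNA was measured in 2 iRIP libraries of Jurkat cells. According to the methods, the authors aligned read pairs of 150 bp with TopHat 2, kept uniquely mapped reads, called peaks per library with simulated reads (500 rounds for a gene, p value under 0.05) and removed peaks overlapping input peaks. The submitters' processing notes name bcl2fastq, TopHat2 and GRCh38. Heights are a deposited signal, counted in tags, and the p-value deposited beside them served as a filter. Deposited positions were read as half-open and are printed counted from 1. Read totals are unknown, so no depth or smallest detectable share is given, and Wilson intervals (95%) cover counting error only.

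The 10 genes and all lists were chosen with earlier results of these data known. All 10 genes are named, and other glycolytic genes where they reached 10 tags in both replicates or are isozymes of a member. Symbols, intervals and strands came from RefSeq tables (GRCh38.p14). The identifiers of the 10 genes were written from knowledge of Ensembl and checked by position, and genes without a strand in the table were left out of counts by position. Background shares of overlap and regions are over all sense peaks. The alternatives were minimum heights of 5, 10 and 20 tags, the 90th percentile of height, a p value under 0.001, exonic peaks only, any identifier within the interval, the share of peak length, an overlap of at least 50%, strand ignored and each replicate left out. CDS shares, overlap and heights by position were added after seeing the data. The functions were tested on simulated data. Python 3.11.15, numpy 2.4.6, pandas 2.3.3, scipy 1.17.1 and matplotlib 3.10.9 were used.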

Additional observations from a re-analysis of the deposited data

How the results depend on the processing

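Of 50 recomputed values, 38 kept their direction, their side of the threshold and their size within the counting interval or 1.5 times the count. The difference in CDS share between the replicates, 4.55 percentage points with p = 0.562, changed sign to -4.14 at 10 tags or more, -1.35 at 5 tags or more and -2.59 at a p value under 0.001, with no Fisher's exact p under 0.796. Replicate 2 lists no peak under 5 tags, so the 5-tag minimum removed peaks of replicate 1 only. At 10 tags or more the peaks of the 10 genes fell to 27 and 34, the CDS share of replicate 1 rose to 63.0%, and the share of replicate 2 overlapped by replicate 1, with the minimum set on both lists, was 47.1%. At a p value under 0.001 they fell to 47 and 55, and the CDS share of replicate 1 was 55.3%. When an overlap had to span 50% or more of a peak, the share of replicate 2 was 46.7%, and 4 genes by identifier reached 20 tags in both replicates against 7 at 10 tags. Without replicate 1 or replicate 2, the count of genes with a sense peak stayed at 9, and that at 10 tags was 8 in both cases. Peaks per kb moved by more than the spread between replicates in 8 of 10 genes at 10 tags or more and in 6 with exonic peaks only. Counts per kb of transcript were not run, since transcript lengths were not used here. No paired analysis was possible because the inputs that share replicate numbers with the iRIP libraries were not analysed here. The unknown depth of each library limits every comparison of heights.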

Other observations

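Peaks were also counted in pseudogenes of the 10 genes, without a share over other pseudogenes to set beside them. Among 105 pseudogenes matched by symbol, 65 of them copies of GAPDH, 5 had a peak on either strand in replicate 1 and 3 in replicate 2. All of these were copies of GAPDH or PGAM1, and the highest had 4 and 6 tags. The authors kept uniquely mapped reads, and how many reads of the 10 genes or of their pseudogenes this removed was not tested.

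Peaks on the strand opposite to the 10 genes were also counted within their intervals. The share over all genes was not computed, so these counts are a description only. Replicate 1 had 6 in 6 genes, the highest with 7 tags opposite GAPDH, and replicate 2 had 2 in 2 genes with 5 tags at most. The peak opposite GAPDH was listed under ENSG00000269968.1. Those opposite ALDOA were listed under ENSG00000274904.1 in both replicates.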
